A study of Mus musculus with 23 samples.

Results

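The nuclear genes of the mitochondrial respiratory chain were followed through 9 lists of open chromatin from mouse embryos, made from mesenchyme of the maxillary prominence, the facial bud that gives rise to the upper jaw and the palatal shelves. Members were the protein-coding genes whose symbol begins Nduf (complex I and its assembly factors), Sdh with a letter from A to D (complex II), Uqcr (complex III), Cox4i, Cox5, Cox6, Cox7 or Cox8 (complex IV), or Atp5 (complex V). This name rule took 96 of the 21627 protein-coding genes on the autosomes and chromosome X: 49 of complex I, of which 8 are assembly factors (Ndufaf), 4 of complex II, 8 of complex III, 18 of complex IV and 17 of complex V. A gene was called in a list when a peak lay within 1 kb of its start or end.

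The respiratory chain passes electrons from NADH and succinate through complexes I to IV to oxygen, and pumps protons that drive ATP synthesis by complex V. Its catalytic cores are encoded partly in mitochondrial DNA and partly in the nucleus, so that nuclear promoters scattered over all chromosomes have to supply subunits of the same machines. Such promoters are known as GC-rich and housekeeping in type, with sites for NRF1, for ETS factors such as GABP, for YY1 and for SP1.

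The assay for transposase-accessible chromatin (ATAC-seq) inserts adapters into open DNA, and a peak marks a region with more insertions than the background. All animals were wild-type C57BL/6 mouse embryos, collected on embryonic days 10.5 (E10.5), 11.5 (E11.5) and 12.5 (E12.5), and the surface ectoderm was removed after Dispase II treatment. Each stage had 3 biological samples with 1 peak list each. The number of embryos pooled per sample is not stated in the sources used here, and since the tissue was taken in bulk, fewer cells of a type and fewer open copies per cell cannot be told apart.

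The lists held 16057, 19095 and 14886 peaks for E10.5 samples 1, 2 and 3, 5682, 24908 and 41457 for E11.5, and 26584, 50361 and 19139 for E12.5. They hold no read counts, so the depth behind a call is unknown, and a longer list has more chances to call a gene. The share of peaks that lay within 1 kb of a protein-coding boundary was 39.4% to 42.8% at E10.5, 32.1% to 74.0% in the E11.5 lists, then 16.7% to 30.6% in those of E12.5. Genes marking mesenchyme and neural crest were called in 4 to 8, 1 to 12 and 5 to 7 of 18 at the 3 stages, and Prrx1, Prrx2, Alx4 and Tfap2b in no list. Epithelial markers were called in 0 to 4 of 12 per list (Krt5, Krt14, Krt18, Grhl3 and Trp63 in none), endothelial markers in 0 to 3 of 10, blood markers in 0 to 3 of 9, neuron and glia markers in 0 to 5 of 10 and muscle markers in 0 to 3 of 8. The markers' part in the results below was not tested.

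Reference sequences show what kind of promoter the peaks sat on. Of the 96 members, 78 had an entry in the promoter table of RefSeq on GRCm38.p6, and the stretches printed here run from 170 bases before the listed start to 30 bases from it, 5′ to 3′ on the gene's strand. Capitals mark matches to 4 motifs searched on both strands, NRF1 (GCGCATGCG), ETS (CCGGAAG), YY1 (AAGATGG) and SP1 (GGGCGG), and to TATAAA on the gene's strand. The SP1 and ETS letters are short and match often, and a match is a description of letters, not a bound site. Members called by all 9 lists are shown by Ndufb5, at chr3:32736893-32737092 (plus strand), Sdhb, at chr4:140961101-140961300 (plus strand), and Atp5g2, at chr15:102671018-102671217 (minus strand).
Ndufb5: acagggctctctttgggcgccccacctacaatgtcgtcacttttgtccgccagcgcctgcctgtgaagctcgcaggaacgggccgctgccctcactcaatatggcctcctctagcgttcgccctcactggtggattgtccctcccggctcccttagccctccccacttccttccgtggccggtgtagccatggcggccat
Sdhb: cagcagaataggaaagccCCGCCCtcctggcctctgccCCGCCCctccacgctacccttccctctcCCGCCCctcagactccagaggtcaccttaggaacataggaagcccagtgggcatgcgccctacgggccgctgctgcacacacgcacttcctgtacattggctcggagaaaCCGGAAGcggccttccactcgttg
Atp5g2: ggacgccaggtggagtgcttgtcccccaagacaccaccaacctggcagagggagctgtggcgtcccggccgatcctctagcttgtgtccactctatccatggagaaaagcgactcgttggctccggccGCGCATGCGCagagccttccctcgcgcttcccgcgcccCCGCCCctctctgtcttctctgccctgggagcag
Atp5g2 held an NRF1 palindrome that matches on both strands, from 42 bases before the start, and an SP1 match. Sdhb held 3 SP1 matches before the start and an ETS match from base 7 after it. No searched motif was found in this window of Ndufb5, whose GC content was 63.5%.

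The members called by all 3 lists at E10.5 and by 0 at E12.5 were Ndufaf5, at chr2:140170476-140170675 (plus strand), Ndufa8, at chr2:36049309-36049508 (minus strand), and Ndufb4, at chr16:37654339-37654538 (minus strand), and their promoters are shown because their calls separate these 2 stages completely.
Ndufaf5: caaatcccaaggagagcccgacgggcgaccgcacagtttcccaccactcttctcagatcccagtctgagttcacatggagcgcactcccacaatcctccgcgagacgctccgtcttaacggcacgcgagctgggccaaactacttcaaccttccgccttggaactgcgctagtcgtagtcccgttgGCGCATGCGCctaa
Ndufa8: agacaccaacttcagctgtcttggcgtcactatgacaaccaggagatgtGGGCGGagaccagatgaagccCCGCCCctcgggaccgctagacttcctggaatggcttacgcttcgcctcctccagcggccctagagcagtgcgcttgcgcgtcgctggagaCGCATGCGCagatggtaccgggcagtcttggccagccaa
Ndufb4: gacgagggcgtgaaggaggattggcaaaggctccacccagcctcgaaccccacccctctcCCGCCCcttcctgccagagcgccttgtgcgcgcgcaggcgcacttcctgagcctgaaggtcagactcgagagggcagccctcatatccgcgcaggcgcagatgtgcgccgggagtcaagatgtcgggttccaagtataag
Ndufaf5 held an NRF1 palindrome from base 17 after the start, and Ndufa8 an NRF1 match from 9 bases before it and 2 SP1 matches. Ndufb4 held 1 SP1 match. Members called by no list are shown by Ndufa6, at chr15:82354262-82354461 (minus strand), a complex I subunit used in all tissues, and Cox8b, at chr7:140900417-140900616 (minus strand), a muscle form.
Ndufa6: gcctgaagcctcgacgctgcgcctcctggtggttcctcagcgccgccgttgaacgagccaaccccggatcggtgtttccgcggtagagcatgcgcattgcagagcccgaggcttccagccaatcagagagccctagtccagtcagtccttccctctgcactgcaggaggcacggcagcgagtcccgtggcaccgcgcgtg
Cox8b: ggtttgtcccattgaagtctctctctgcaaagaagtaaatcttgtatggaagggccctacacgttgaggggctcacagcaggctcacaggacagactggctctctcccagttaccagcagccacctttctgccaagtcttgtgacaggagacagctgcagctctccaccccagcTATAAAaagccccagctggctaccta
The window of Ndufa6 held none of the searched motifs, with 19 CpG dinucleotides and 66.0% GC. Cox8b held TATAAA from base 5 after the listed start, 1 CpG and 53.5% GC. An uncalled member could therefore have a CpG-rich or a CpG-poor promoter.

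Over all 78 members with a sequence, the 300 bases from 250 before to 50 after the first listed start held the NRF1 letters in 12.8% of promoters, against 2.43% of the 17273 protein-coding promoters in the table. ETS letters stood in 23.1% against 12%, and YY1 letters in 14.1% against 6.42%. The SP1 letters stood in 44.9% of members and 46.9% of all promoters, and TATAAA was at 3.85% against 9.05%. The median member promoter held 20 CpG dinucleotides and 58.5% GC, against 14 and 56.3% for all genes. NRF1 letters stood in 7 of the 32 members called by 3 to 6 lists (21.9%), in 2 of the 23 called by 7 to 9 lists (8.7%) and in 1 of the 23 called by 0 to 2 lists (4.35%). In all genes of these classes they stood in 3.94%, 4.02% and 1.03%. The SP1 letters followed the number of calls in members (30.4%, 34.4% and 73.9% from the lowest to the highest class) and in all genes (28.5%, 61.3% and 75.6%).

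**Figure D1:**
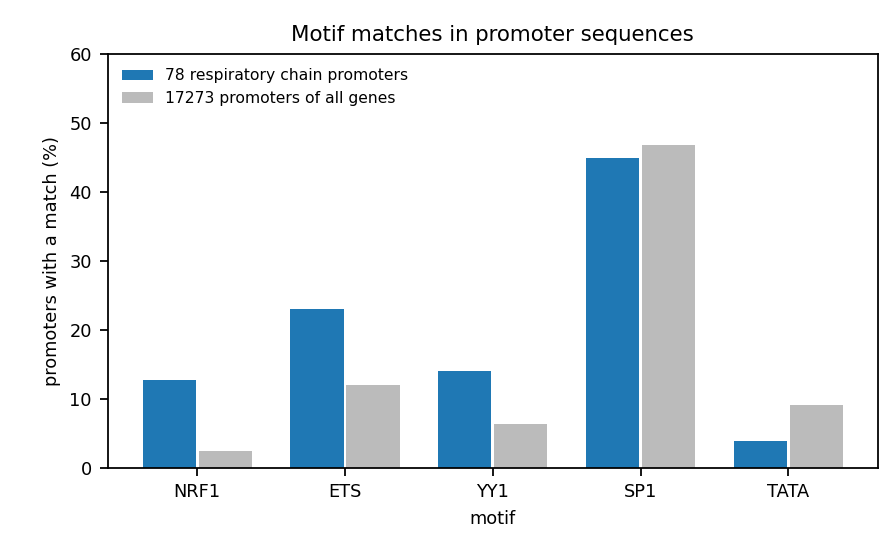
Bars give the percentage of promoters (300 bases each) with at least 1 match to each motif, in respiratory chain genes (blue, 78 promoters) and in all protein-coding genes (grey, 17273 promoters). The NRF1 bar of the members stands at 12.8% against 2.43%, whereas the SP1 bars are at 44.9% and 46.9%.

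In whole lists, respiratory chain genes had a peak within 1 kb of a boundary more often than protein-coding genes at large in each of the 9 lists. At E10.5 the 3 lists called 47, 54 and 37 of the 96 members (49.0%, 56.2% and 38.5%), against a background over all genes of 31.4%, 35.4% and 27%. At E11.5 they called 34, 73 and 81 members (35.4%, 76.0% and 84.4%), against 21.8%, 50.7% and 52.6%. At E12.5 they called 23, 40 and 29 members (24.0%, 41.7% and 30.2%), against 19.4%, 36.9% and 26.3%. Sample 1 of E11.5, the shortest list, lay below all 3 E10.5 lists, while the other E11.5 lists lay above every other list.

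The mean share was 47.9% ± 8.9 (SD, n = 3 lists) at E10.5, 65.3% ± 26.2 a day later and 31.9% ± 8.98 in the E12.5 lists, and for all genes 31.3% ± 4.22, 41.7% ± 17.2 and 27.5% ± 8.79. Divided by the share of all genes in the same list, the members' share was 1.43 to 1.59 at E10.5, then 1.50 to 1.62 at E11.5, then 1.13 to 1.23 at E12.5. In whole lists the E12.5 ratios lay below those of the other stages without overlap, but an exact two-sided test of 3 lists against 3 cannot go under p = 0.1, and none was run on the members. Mitochondrial ribosomal protein genes (78 genes) had mean ratios of 1.31, 1.55 and 0.92 at the 3 stages, and cytosolic ribosomal protein genes (76 genes) 1.29, 1.71 and 1.22. A lower ratio at E12.5 than at E11.5 was therefore also seen in these other housekeeping families.

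List length was taken out by keeping the strongest 5682 peaks of each list. The members called were then 27, 24 and 26 at E10.5 (background 19.5%, 20.3% and 17.5% of all genes), 34, 42 and 49 at E11.5 (background 21.8%, 23.5% and 24.5%) and 9, 14 and 15 at E12.5 (background 7.3%, 11.4% and 13.7%). The shares of the 3 stages no longer overlapped, with 25% to 28.1% of members at E10.5, 35.4% to 51% in the E11.5 lists, then 9.38% to 15.6% in those of E12.5. The background of all genes was highest at E11.5 and lowest at E12.5 as well, and the ratio of members to all genes was 1.23 to 1.55, 1.62 to 2.08 and 1.14 to 1.28. The ratios of E12.5 thus overlapped with those of E10.5 at equal length.

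**Figure D2:**
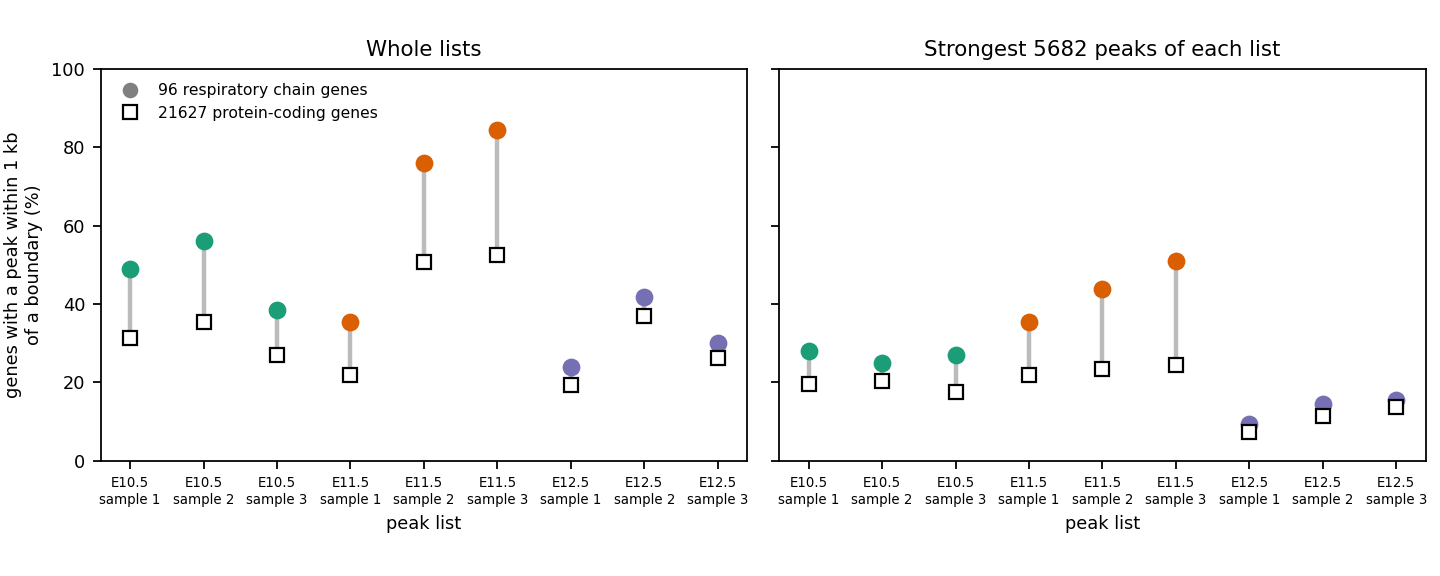
Each position on the x axis is a peak list, and the y axis gives the percentage of genes with a peak within 1 kb of a boundary, for the 96 respiratory chain genes (filled circles, coloured by stage) and all 21627 protein-coding genes (open squares). In whole lists (left) the members lie above all genes in each of the 9 lists, and with the strongest 5682 peaks of each list (right) the 3 stages separate, with E12.5 at 9.38% to 15.6%.

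By member, 7 of 96 (7.29%) were called by all 9 lists, against 6.1% of all genes, and 10 (10.4%) by no list, against 34.6%. These 7 were Ndufb1, Ndufb2, Ndufb5, Sdhb, Uqcrc2, Atp5g2 and Atp5j. The share called everywhere was thus near that of all genes, and the larger gap was in genes that were never called. At E10.5, 31 members were called by all 3 lists and 34 by 0, at E11.5 these numbers were 34 and 15, and E12.5 had 11 and 44. Over all 21627 genes the same counts were 4136 and 12100, 4649 and 9203, and 2368 and 11780. The number called by all 3 lists was thus lowest at E12.5 in members and in all genes.

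**Figure D3:**
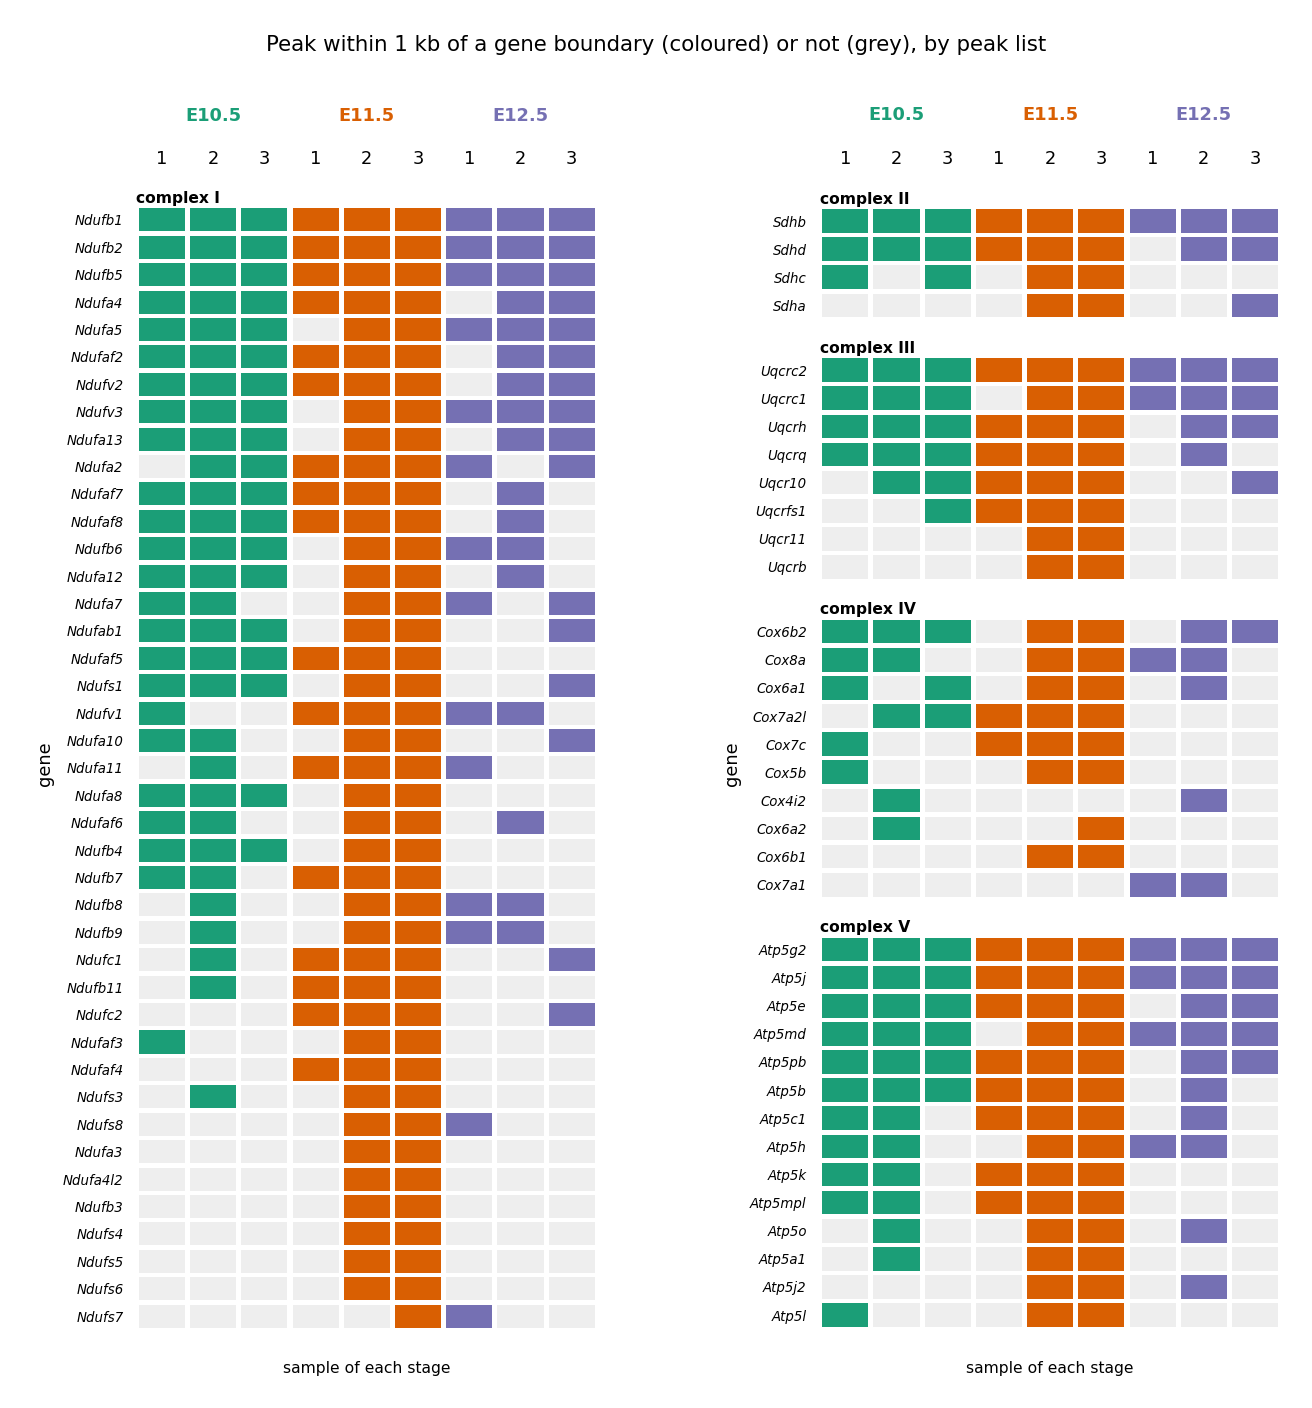
Rows are the 77 of 96 members called by at least 2 lists, grouped by complex, columns the 3 samples of each stage, and a coloured cell marks a peak within 1 kb of a boundary of that gene (E10.5 green, E11.5 orange, E12.5 violet). The 7 members called everywhere stand at the top of complexes I, II, III and V, and complex IV has none of them.

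Complex I takes electrons from NADH and is the largest assembly of the chain. Its 41 subunit genes were called at 43.9%, 61.0% and 36.6% in the E10.5 lists, 29.3%, 80.5% and 87.8% in those of E11.5, then 34.1%, 31.7% and 36.6% at E12.5. The means were 47.2% ± 12.5, 65.9% ± 31.9 and 34.1% ± 2.44 (SD, n = 3 lists), and the lists of the stages overlapped or met. Among the core subunits that bind NADH or carry its electrons, Ndufv2 was called by 8 lists, Ndufs1 and Ndufv1 by 6, Ndufs8 by 3 and Ndufs7 by 2. Ndufs3, another core subunit, was called by 3.

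Accessory subunits of the membrane arm made up the 3 genes of complex I called in all 9 lists. At Ndufb5, the authors' fold enrichment at the summit was 4.27, 3.35 and 3.07 in the E10.5 lists, 7.69, 9.74 and 7.92 in those of E11.5, then 4.78, 3.41 and 3.36 at E12.5. The peak stood between the 79.4 and 96.7 percentile of its list by p-value in each of the 9 lists, and folds of different lists are not on a common scale. Ndufb2 had a median percentile of 90.2 and Ndufb1 of 79.0. At Ndufb2, sample 3 of E12.5 was called at the far end of the gene, 7913 bp from the start, so its start was called in 8 lists.

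The 8 assembly factors, which help to build complex I and are not part of it, were called in 6, 5 and 4 at E10.5, 5, 7 and 8 a day later and 0, 4 and 1 in the E12.5 lists. Their mean share of 62.5% ± 12.5 at E10.5 and 83.3% ± 19.1 at E11.5 compared with 20.8% ± 26.0 at E12.5. Ndufaf2, Ndufaf7 and Ndufaf8 were called by 8, 7 and 7 lists, and Ndufaf1 by 1. Without these 8 genes the E12.5 ratio of the members to all genes was 1.11 to 1.35.

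Complex II, succinate dehydrogenase, feeds electrons from the citric acid cycle and is the complex with every subunit encoded in the nucleus. Sdhb, its iron-sulphur subunit, was called by all 9 lists, with folds of 3.41, 2.77 and 2.73 at E10.5, then 5.04, 7.25 and 5.04 at E11.5, then 3.08, 2.97 and 2.31 at E12.5. Sdhd, a membrane anchor, was called by 8 lists and missed in sample 1 of E12.5. Sdhc, the other anchor, was called in samples 1 and 3 of E10.5, samples 2 and 3 of E11.5 and in 0 E12.5 lists. Sdha, the flavoprotein that oxidises succinate, was called in samples 2 and 3 of E11.5 and in sample 3 of E12.5, with percentiles of 80.5, 91.8 and 76.9. Calls of the 4 genes thus ran from 3 to 9 lists.

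Complex III passes electrons from ubiquinol to cytochrome c. Its 8 genes were called in 4, 5 and 6 at E10.5, 5, 8 and 8 in the E11.5 lists, then 2, 4 and 4 in those of E12.5, and each had a call in at least 2 lists. Uqcrc2, a core subunit, was called by all 9 lists at a median percentile of 88.4, and its partner Uqcrc1 by 8. In sample 1 of E12.5 the nearest peak of Uqcrc2 lay 792 bp from the boundary. Uqcrfs1, the Rieske iron-sulphur protein, was called in sample 3 of E10.5 and in all 3 E11.5 lists, at percentiles of 7.5, 60.6 and 93.2 in the latter, and in 0 at E12.5.

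Complex IV, cytochrome c oxidase, reduces oxygen, and its nuclear subunits surround a core encoded in mitochondria. It was the complex with the lowest mean share at each stage, 24.1% ± 6.42, 35.2% ± 22.5 and 16.7% ± 14.7 (18 genes), and 5 of its genes were called by no list. All genes had higher means, 31.3%, 41.7% and 27.5%. By list, complex IV lay above all genes only in sample 3 of E11.5, at 55.6% against 52.6%. The lists gave 5, 5 and 3 genes at E10.5, 2, 7 and 10 a day later and 2, 6 and 1 in the E12.5 lists, so stages overlapped. Several of its subunits exist as a form used in most tissues and a form of muscle or testis.

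Cox4i1, the common form, was called in 1 list and Cox4i2 in 2. Cox6a1 was called in 5 lists and the muscle form Cox6a2 in 2. Cox6b1 was called in 2 lists and the testis form Cox6b2 in 7, where the neighbouring gene Fam71e2 has a boundary within 1 kb. Cox8a was called in 6 lists, the muscle form Cox8b in 0 and the testis form Cox8c in 1, at the 0.5 percentile of that list. Cox7b was called in 1 list and its testis form Cox7b2 in 0.

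The muscle form Cox7a1 was called in samples 1 and 2 of E12.5, in each at its far end, 2511 and 2430 bp after the start and within 1 kb of a boundary of Capns1, a calpain subunit gene. Its start was called in 0 lists. Its common partner Cox7a2 was called in 0 lists by the rule, but 4 lists had a peak within 1 kb of the start listed in the promoter table, which lies inside the outer boundary of the gene. Cox5a, a common subunit without a tissue partner, showed the same, with 0 calls by the rule and 4 at its listed start. The remaining uncalled gene of complex IV was Cox6c, which has no entry in the promoter table.

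Ndufa4, grouped with complex I by its symbol but since assigned to cytochrome c oxidase, was called in 8 lists, and its hypoxia-inducible relative Ndufa4l2 in samples 2 and 3 of E11.5, where Shmt2 and Stac3 have boundaries within 1 kb. Ndufa9 and Ndufa6 were called by no list, and neither were Ndufb4b and Ndufb4c, close copies of Ndufb4. Whether reads map ambiguously to these copies was not tested.

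**Figure D4:**
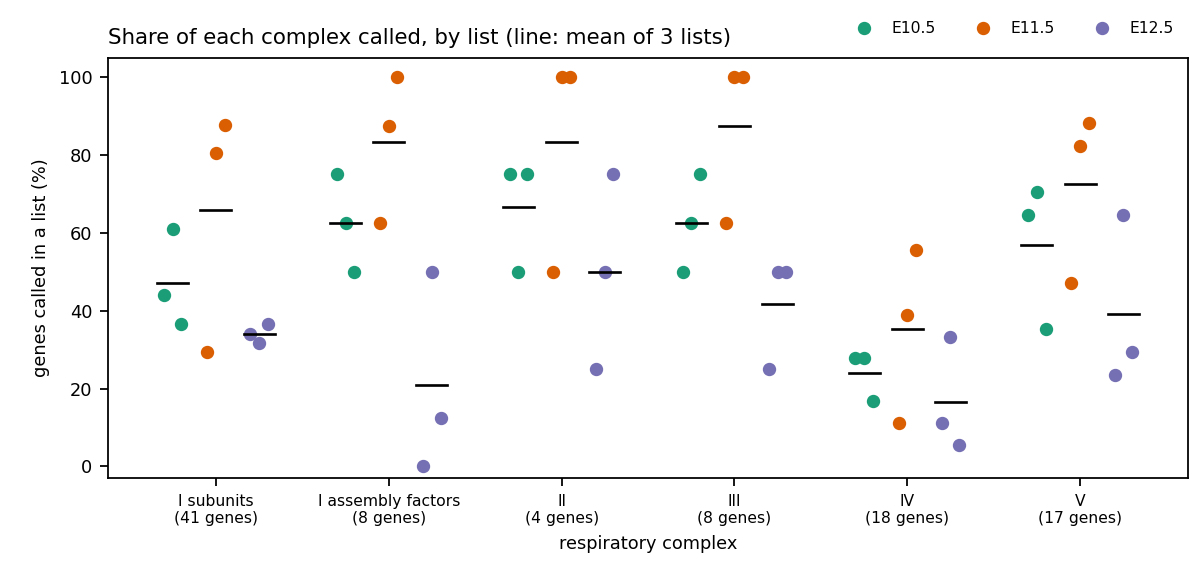
The y axis gives the percentage of genes of each group called in a list, points are the 3 lists of a stage (E10.5 green, E11.5 orange, E12.5 violet), and black lines are their means. Assembly factors of complex I lie at 0% to 50.0% in the E12.5 lists and at 50.0% to 100% in the others, and complex IV has the lowest mean at each stage.

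Complex V is the ATP synthase. Its 17 genes were called in 11, 12 and 6 at E10.5, then 8, 14 and 15 at E11.5, then 4, 11 and 5 at E12.5, with means of 56.9% ± 18.9, 72.5% ± 22.3 and 39.2% ± 22.3. The catalytic subunits were called by 7 lists (Atp5b) and 3 lists (Atp5a1). The proton-carrying ring subunit has 3 genes for nearly the same protein, of which Atp5g2 was called by 9 lists, Atp5g3 by 1 and Atp5g1 by 0. The listed start of Atp5g3 lies inside the outer boundary of the gene, as in Cox7a2 and Cox5a, and 2 lists had a peak within 1 kb of that start. At Atp5g2 the folds were 3.3, 2.83 and 3.43 at E10.5, 5.05, 6.66 and 8.36 in the E11.5 lists, then 5.27, 3.42 and 3.88 in those of E12.5, between the 60.5 and 98.6 percentile of the list.

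Atp5j, the coupling factor of the stalk, had a median percentile of 94.0 over its 9 calls and faces Gabpa, which encodes the DNA-binding subunit of GABP. It has 2 listed starts. In samples 1 and 3 of E12.5 the summit of the strongest peak lay at -281 and -287 bp from the nearer start, while in the other 7 lists it lay between -68 and 77 bp from one. Since the 2 genes share this stretch, a peak there cannot be assigned to either.

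Calls that separated the stages completely were few. All 3 lists of E11.5 and 0 of E10.5 called 2 members (2.08%), the assembly factor Ndufaf4 and the subunit Ndufc2, against a background of 2.14% of all genes, and 0 members had the reverse (0.0879% of all genes). The share was that of all genes. Ndufaf4 had folds of 5.43, 9.72 and 8.17 in the 3 E11.5 lists, with summits at -76, -17 and -24 bp from the start, and was called in 0 lists of E10.5 and E12.5. The peaks of Ndufc2 ranked between the 18.0 and 85.9 percentile.

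All 3 lists of E11.5 and 0 of E12.5 called 9 members (9.38%), against a background of 4.46%, and the reverse held for 0 members (0.277% of all genes). They were the complex I genes Ndufaf4, Ndufaf5, Ndufb7 and Ndufb11, Uqcrfs1 of complex III, Cox7c and Cox7a2l of complex IV, and Atp5k and Atp5mpl of complex V. All 3 E11.5 lists called 34 of 96 members and 4649 of 21627 genes, so a larger share of members could meet this rule. Cox7c, a small subunit, had the highest median percentile of all members (97.3), with folds of 9.77, 14.80 and 11.86 in the E11.5 lists, and 3.88 in sample 1 of E10.5. Cox7a2l, known for its part in joining complexes III and IV into supercomplexes, had folds of 4.87, 7.88 and 4.96 at E11.5 and was called in samples 2 and 3 of E10.5. The small ATP synthase subunit Atp5k had folds of 4.83, 8.04 and 3.87 at E11.5, and 2.60 and 2.19 in samples 1 and 2 of E10.5.

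These counts depended on single lists, and the background moved with them. Without sample 1 of E11.5, the shortest list, 26 members (27.1%) were called in both remaining E11.5 lists and in 0 of E12.5, against 13.1% of all genes. Without sample 2 of E12.5 there were 14 such members, against 6.99% of all genes. Without sample 1 of E11.5, 14 members (14.6%) were called in both remaining E11.5 lists and in 0 of E10.5, against 9.58% of all genes. These 14 included the core subunit Ndufs8, the succinate-oxidising Sdha and the accessory subunits Ndufs4, Ndufs5 and Ndufs6. Without sample 1 or sample 2 of E10.5 the members numbered 4 and 5, against 3.06% and 3.36% of all genes.

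All 3 lists of E10.5 and 0 of E12.5 called 3 members (3.12%), the background being 1.2%, and 0 members had the reverse (0.398% of all genes). The 3 E10.5 lists together called 31 of 96 members and 4136 of 21627 genes, so here too a larger share of members could qualify. Ndufaf5, an assembly factor that modifies Ndufs7, had folds of 4.53, 2.35 and 3.08 at E10.5 and of 6.15, 9.32 and 10.09 at E11.5, and no call at E12.5. The subunit Ndufa8 had folds of 4.97, 2.74 and 2.68 at E10.5 and was called in samples 2 and 3 of E11.5 with 8.60 and 5.14. Ndufb4, an accessory subunit of the membrane arm, had folds of 3.72, 2.35 and 3.08 at E10.5 and was called in the same E11.5 lists with 7.52 and 7.18. At E10.5 the ranks of these peaks ran from the 6.0 to the 97.2 percentile. Without sample 2 of E12.5 the count was 8, against 3.02% of all genes, and the further members were Atp5b, Ndufa12, Ndufaf7, Ndufaf8 and Uqcrq. It was 6 without sample 3 of E10.5 (2.48% of all genes) and 5 without sample 3 of E12.5 (2.19%).

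A test of each gene over all 9 lists, with limma on calls corrected for the length of the list, was fitted to the 12829 genes called by 1 to 8 lists, of which 79 were members. At a Benjamini-Hochberg adjusted p under 0.05, 0% of genes passed for E11.5 against E10.5 in either direction, 0.234% (30 genes) passed with more calls for E12.5 against E11.5 and 0% with fewer, and 0% passed in either direction for E12.5 against E10.5. No member passed. At an unadjusted p under 0.05, limma had 743, 1576 and 989 genes in the 3 comparisons, of which 2, 10 and 4 were members. With limma on the uncorrected calls, the genes passing were 340 with more and 6 with fewer calls, then 35 and 486, then 40 and 157, with 1 member (Ndufaf4, more), 2 (Ndufaf4 and Ndufaf5, fewer) and 1 (Ndufaf5, fewer) among them. These were 1.27%, 2.53% and 1.27% of the members tested, against 2.65%, 3.79% and 1.22% of all genes in the same directions. In calls simulated for E12.5 against E10.5, limma recovered 0 of 100 genes with the odds of a call changed 8-fold and 0 of 100 changed 32-fold. A count of 0 in that comparison therefore does not show that calls were alike.

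The smallest adjusted p of a member from limma was 0.238 for E12.5 against E10.5, reached by Ndufaf5, with a difference in standardised residual calls of -1.96 ± 0.599 (SE, n = 3 lists a stage), and by Ndufa8 and Ndufb4 (-1.88 ± 0.583 each). For E12.5 against E11.5 it was 0.24 in limma, reached in opposite directions by Cox7a1 (3.14 ± 1.01), whose 2 calls lay at its far end, and by Ndufaf5 (-1.82 ± 0.599). The median difference over the 79 members was -0.56 for E12.5 against E11.5, with 74.7% of members below 0, against -0.22 and 58.2% of all genes tested. For E12.5 against E10.5 it was -0.46 with 51.9% below 0, against 0.05 and 39.1%. For E11.5 against E10.5 it was 0.07, against -0.02.

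Most calls stood over the start of the gene. Of 356 calls of the 78 members with a listed start, 339 had the strongest peak within 1 kb of that start, and 17, in 9 genes, had it at the other boundary only. The summit lay within 250 bp of the start in 290 (81.5%), with a median of 41 bp before it. Per list, this share was 85.4%, 81.4% and 87.5% at E10.5, 96.7%, 88.7% and 86.8% a day later and 55.0%, 58.8% and 69.2% in the E12.5 lists. For all called genes with a listed start it was 63.4%, 59.0% and 64.4%, then 76.6%, 74.2% and 69.1%, then 47.2%, 46.7% and 49.4%. Members lay above all genes in each list, and E12.5 lay lowest in both.

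**Figure D5:**
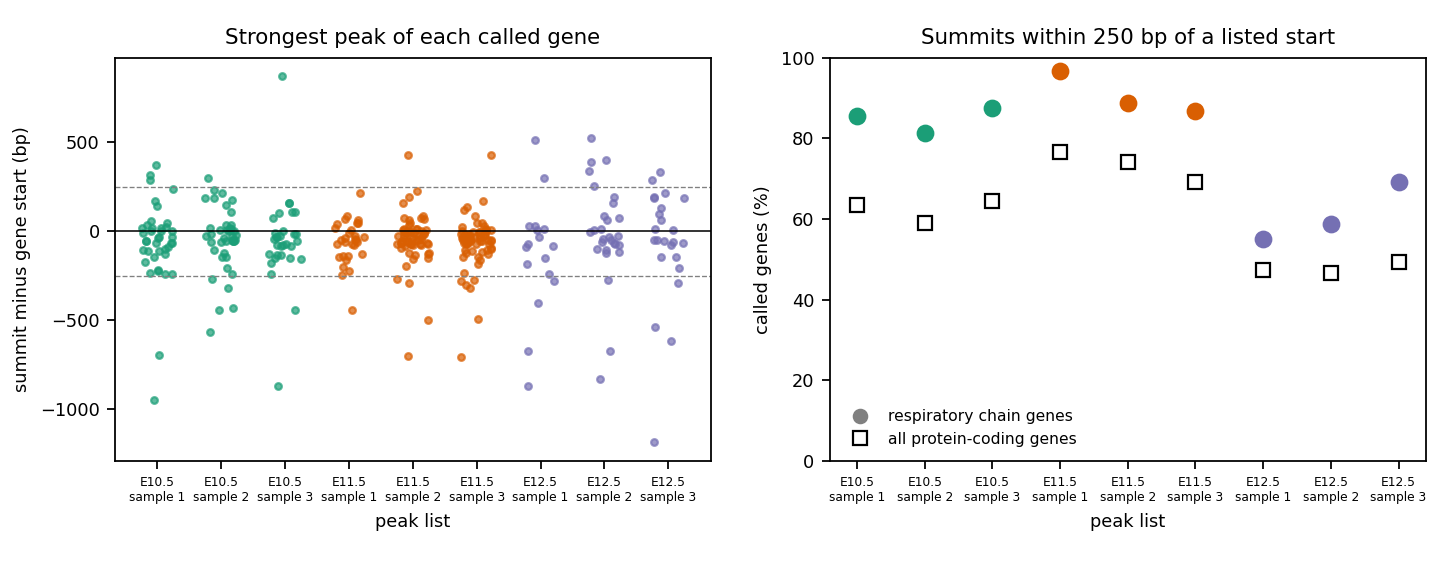
Left, distance in bp from the start to the summit of the strongest boundary peak, 1 point per called member and list (337 of 356 calls, those beyond 1200 bp are not drawn), with dashed lines at 250 bp on either side. Right, percentage of called genes whose summit lies within 250 bp of a listed start, for members (filled circles) and all genes (open squares), with E12.5 members at 55.0% to 69.2%.

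The strongest peaks of called members had a median rank above that of all peaks near a boundary in 7 of 9 lists. The comparison favours members, since weaker peaks at the same gene entered only the side of all peaks near a boundary. In sample 1 of E11.5 the medians were close, at 56.0 against 55.6. In sample 3 of E11.5 the median percentile was 89.0 against 77.7 for all boundary peaks, and in sample 2 it was 80.0 against 70.3. In samples 1 and 2 of E10.5 members ranked below, at 67.7 against 69.5 and at 63.9 against 71.6. Of the 418 member calls, 307 (73.4%) had a peak lying over the boundary itself. Just inside the limit of 1 kb from the outer boundary stood Atp5g3 in sample 3 of E11.5 (994 bp, with its summit at -54 bp from the listed start) and Ndufa7 in sample 1 of E12.5 (830 bp). Uqcrh in sample 3 of E12.5 (812 bp) and Uqcrc2 in sample 1 of E12.5 (792 bp) came next. Just outside stood Cox6a2 in samples 1 and 2 of E12.5 (1024 and 1047 bp) and Atp5g3 in sample 2 of E11.5 (1082 bp).

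Many members lie close to another gene. A start or end of another protein-coding gene lay within 1 kb of the start or end of 54 of 96 members (56.2%), against 25.1% of all genes, and whether promoters are shared was not measured. Ndufb5 had Mrpl47 there, a mitochondrial ribosomal protein gene, Ndufs6 had Mrpl36, Sdhd had Timm8b, an import factor of mitochondria, and Ndufa7 had Rps28. The 54 members with such a neighbour were called at 58.6% ± 9.32, 72.2% ± 25.9 and 39.5% ± 10.2 at the 3 stages, against 43% ± 3.86, 57.8% ± 22.3 and 37.5% ± 10.7 for the 5425 genes with one. The 42 other members were called at 34.1% ± 9.01, 56.3% ± 26.5 and 22.2% ± 7.65, against 27.3% ± 4.35, 36.3% ± 15.5 and 24.2% ± 8.16 for the genes without one. Set against these genes, the 42 had ratios of 1.04 to 1.38, 1.42 to 1.64 and 0.82 to 1.01. Their E12.5 share was thus close to that of other genes without a neighbouring boundary.

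Other genes of mitochondrial respiration gave a background for the members. Assembly factors outside the name rule (39 genes) were called in 18 to 21, 13 to 37 and 12 to 19 at the 3 stages. Divided by the share of all genes in the same list, this was 1.45 to 1.71, 1.53 to 1.80 and 1.27 to 1.58. Of these factors, Cox16 and Sdhaf4 were called by all 3 lists of E11.5 and by 0 of the other stages, as was Ndufaf4. Genes of electron carriers and coenzyme Q synthesis (17 genes) were called in 7 to 10, 7 to 13 and 5 to 7. Cycs, the somatic cytochrome c, was called by 9 lists and the testis form Cyct by 0, and Coq6, a hydroxylase of coenzyme Q synthesis, by every list of E10.5, every list of E11.5 and 0 of E12.5. Of all genes, 2.14% were called in all 3 lists of E11.5 and 0 of E10.5. Those in all 3 lists of E11.5 and 0 of E12.5 made up 4.46%, and those in all 3 of E10.5 and 0 of E12.5 1.2%.

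Citric acid cycle genes (16 genes) were called in 10 to 12, 10 to 16 and 3 to 11 (ratios to all genes of 1.99 to 2.55, 1.90 to 2.86 and 0.97 to 2.14). Dld and Pdha1, both of the pyruvate dehydrogenase complex, were called in 1 list of E10.5, 3 of E11.5 and 0 of E12.5. They were 2 of 16 genes, against 4.46% of all genes called in all 3 lists of E11.5 and 0 of E12.5. Regulators of mitochondrial gene expression (16 genes) were called in 10 to 12, 10 to 14 and 10 to 13, a similar range at each stage. Their ratios were 1.99 to 2.55, 1.66 to 2.86 and 2.20 to 3.22. Among them Gabpa, Sp1, Esrra, Tfb1m and Tfb2m were called by 9 lists and Nrf1 and Yy1 by 8. Glycolysis genes (18 genes) were called in 8 to 10, 6 to 13 and 7 to 11, and none of them separated a pair of stages completely.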

How the data were processed

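Peak lists of 9 biological samples (23 runs, 1 to 4 per sample) were used as deposited. Per the submitters' processing notes, Bowtie2, deepTools 3.3.1 and MACS2 produced them on mm10. Per the labels, alignments were paired-end and blacklisted regions removed. The sources used here do not give read filters, a transposase shift or a MACS2 threshold. The deposited fold enrichment (a ratio) at the summit, −log10 p-value and −log10 q-value are the authors' own and served to rank, filter or describe peaks of 1 list. In every list the smallest deposited −log10 q lay from 1.30 to 1.32. The lists hold no counts, so no read-level precision can be given.

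Gene starts and ends came from the RefSeq table of GRCm38.p6, which gives no strand, and starts and strands from its promoter table. Calls were corrected for list length by an additive logit model of list and gene (a Rasch model, conditional on the number of lists calling the gene). The residuals went into limma 3.58.1 (R 4.3.3) (9 lists, stage as factor), Benjamini-Hochberg adjusted at 0.05. Its p-values measure no more than the spread between these 9 samples. Tested on simulated calls without change, limma had 4.89% of 11412 genes at an unadjusted p under 0.05 and called 0. With 100 genes changed 8-fold and 100 changed 32-fold in odds, 75 and 82 had the right sign and 0 of each passed. Python 3.11.15, NumPy 2.4.6, pandas 2.3.3 and Matplotlib 3.10.9 were used.

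The members and all 11 gene lists (5 of pathways, 6 of cell type markers, 173 genes, all found) were chosen with earlier results of these data known. Named genes are members called in all 3 lists of a stage and in 0 of another, members called by none, tissue isoforms with their partners, the Sdh genes, per complex the 3 members with the highest median percentile among those called by all 9 lists, and pathway genes called in all 3 lists of a stage and in 0 of another. Other genes named as examples were chosen after their values were seen. The values of 1 member enter every count and are not reported singly here.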

Additional observations from a re-analysis of the deposited data

How the results depend on the processing

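The difference in the members' share kept its sign under every alternative and every omitted list for all 3 pairs of stages. The gene-level counts did not hold. With equal-length lists 421 genes passed with more calls and 110 with fewer for E11.5 against E10.5, 65 and 664 for E12.5 against E11.5, and 13 with more for E12.5 against E10.5. On the 0/1 calls themselves these counts were 340 and 6, then 486 fewer, then 40 more and 157 fewer. The 30 genes with more calls for E12.5 against E11.5 became 0 with −log10 q of at least 5, within 500 bp, with the summit within 1 kb or by the start only, and 61 within 2 kb. Leaving out single lists gave 0 to 5 genes with fewer calls for E11.5 against E10.5, and 0 to 124 with more for E12.5 against either other stage, the highest without sample 3 of E12.5, where Cox7a1 passed.

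The difference between stages in the ratio of members to all genes changed from the values of the whole lists. For E11.5 against E10.5 it was 0.29 with −log10 q of at least 5, 0.45 with equal-length lists, -0.01 within 500 bp, 0.14 by the start only and 0.29 without members that have a neighbouring boundary, an alternative chosen after seeing the data and set against genes without one. For E12.5 against E11.5 the same settings other than the window gave -0.77, -0.62, -0.54 and -0.60, and leaving out assembly factors gave -0.30. For E12.5 against E10.5 it was -0.48 with −log10 q of at least 5, -0.17 with equal-length lists, -0.46 within 500 bp and -0.26 without assembly factors. At E12.5 the ratio itself ran from 0.49 to 1.25 with −log10 q of at least 5 and from 1.00 to 1.16 by the start only. With −log10 q of at least 5, members thus did not lie above all genes in every E12.5 list. The causes were not tested.

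Members called in every E11.5 list and 0 of E10.5 numbered 7 with −log10 q of at least 5 (7.29%, against 2.9% of all genes), 4 with equal-length lists (4.17% against 2.21%), 1 without assembly factors (1.14% against 2.14%) and 2 to 14 with a list left out (2.08% to 14.6%, against 2.14% to 9.58%). Those in every E11.5 list and 0 of E12.5 numbered 12 with −log10 q of at least 5 (12.5% against 6.26%) and 13 with equal-length lists (13.5% against 6.08%). There were 7 without assembly factors (7.95% against 4.46%) and 6 without neighbouring boundaries (14.3% against 4.15% of genes without them). With a list left out they numbered 9 to 26 (9.38% to 27.1%, against 4.46% to 13.1%), and the reverse 0 to 1 (against 0.277% to 1.14% of all genes). Those in every E10.5 list and 0 of E12.5 numbered 1 with equal-length lists (1.04% against 1.94%), 1 without neighbouring boundaries (2.38% against 1.07% of genes without them) and 3 to 8 with a list left out (3.12% to 8.33%, against 1.2% to 3.02%), and the reverse 0 to 1 (Cox7a1, without sample 3 of E12.5, 1.04% against 1.42%). In limma with equal-length lists, Cox7a2l, Ndufa11, Ndufaf4 and Ndufb11 passed with more calls for E11.5 against E10.5 (6.78% of 59 members tested, against 4.89% of all genes tested), and these and Uqcrq with fewer for E12.5 against E11.5 (8.47% against 7.71%). Members called in all 3 lists of a stage and 0 of another gave 250 values under alternatives, each in that comparison. None of these members had passed in whole lists. Of the 250 values, 241 again did not pass and kept their sign, and 8 passed. As none passed to begin with, the 241 do not show that a difference held. The residual difference of Ndufb4 for E12.5 against E10.5 changed sign to 0.05 within 2 kb.

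Residuals of same-numbered samples of different stages correlated between -0.03 and 0.02, and differently numbered samples were not compared with them. The sample numbers were not used as a pairing in the main fit, and whether they mark a pairing was not settled. With the replicate block, limma passed 45 genes with more calls for E12.5 against E11.5 and 0 in every other comparison and direction.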
